A study of Rattus norvegicus with 8 samples.

Results

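Potassium channel genes were described in hypothalamic blocks of male F344N rats after retinoic acid (RA) was injected into the brain. The group held every gene whose rat symbol starts with *Kcn*, except *Kcnj10* and *Kcnj13*. The RefSeq reference (GRCr8) lists 95 such symbols, of which 88 had a probe on the array, among 15159 genes that could be named in all. The other 7, among them *Kcnd2l1*, *Kcnk7*, *Kcnk16-ps1*, *Kcnk6-ps1*, *Kcnq5* and *Kcnu1*, had no matched probe and were not analysed here. Each gene was represented by its brightest probe, and 24 of the 88 had more than 1.

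All rats were males kept in short days (SD), and both groups carried a cannula in the third ventricle. One group of 4 rats received 5 μl of all-trans RA and the other 4 received vehicle, and tissue was taken 24 hrs later. For the RA solution the array labels state 1e-05 M and the methods 1e-04 M. For the vehicle the labels state saline, and the methods 10% DMSO in saline. RNA of an RA rat and of a vehicle rat was hybridised together on each of 8 two-colour Agilent arrays. RA was labelled with Cy5 on arrays 1, 3, 6 and 8 and with Cy3 on arrays 2, 4, 5 and 7. All 8 arrays lay on 1 slide, arrays 1 to 4 in its first row and arrays 5 to 8 in its second, so that both dye orders had 2 arrays in each row. Neither the labels nor the methods name the arrays that share RNA and p values may in part measure technical spread. Precision is limited by the small number of arrays.

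Potassium channels let potassium ions leave or enter cells and set the resting potential, the shape of action potentials and the rate at which neurons fire. Voltage-gated channels are built of pore subunits that can be joined by electrically silent subunits and by accessory subunits, while inward rectifiers and two-pore leak channels act mainly near the resting potential. Calcium-activated channels couple potassium flow to calcium inside the cell, and some of them are used by immune and glial cells rather than neurons.

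Values are log2 ratios of RA over vehicle after normalisation, so that a value above 0 is a higher level after RA, and a fold change is the mean over the 8 arrays. Because the partners of the arrays are not named, limma was run on the means of 4 pairs of arrays for each of the 24 possible pairings. For each gene the largest p was kept. A gene is said to have risen or fallen where this p, not adjusted for the number of probes, was under 0.01, which is the threshold of the study's methods. Under the stricter rule, a p adjusted by the Benjamini-Hochberg method under 0.05, limma called 0 of the 88 genes and 0 of all 30347 probes tested, and the lowest adjusted p of a potassium channel gene was 0.267. With the arrays taken as independent, limma called 4 of the 88 at that adjusted threshold, and 7 with slide row added as a block. Both fits ignored that, per the methods, the same RNA was used again with the dyes swapped. Shares over all probes are not given for them, so these counts cannot be set beside a background. All calls below therefore rest on unadjusted p values.

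Markers of the labelled tissue were measured: all 8 arcuate neuron markers (*Agrp*, *Pomc* and others) and all 9 neuronal markers with a probe were well above background on every array. Of the 88 potassium channel genes, 70 had a signal marked by the image software as well above background, in either channel, on all 8 arrays, 11 on 1 to 7 arrays and 7 on none (*Kcna10*, *Kcne3*, *Kcnj1*, *Kcnj2*, *Kcnj15*, *Kcnk18* and *Kcnmb1*). In a tissue block, fewer cells of a type and less RNA per cell cannot be told apart.

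RA was followed by small shifts in these genes, with more values below than above 0. At an unadjusted p under 0.01, 4 of 88 fell (4.55%, beside 0.792% of all named genes) and 1 rose (1.14%, beside 3.52%). In both directions together this was 5 of 88, or 5.68%, against 4.31% of the named genes. The 4 that fell, all subunits of voltage-gated channels, included *Kcns3*, *Kcna2* and *Kcnb2*, and the one that rose was *Kcnn4*, a calcium-activated channel. These calls were fragile: with 1 couple of arrays left out, 0 to 2 of the 88 rose and 0 to 4 fell, and none of those 4 passed without arrays 1 and 2, 1 and 7, 8 and 2, or 6 and 7, although none changed sign. At a p under 0.05, 9 genes were counted (10.2%, beside 13.1% of the named genes), 7 lower and 2 higher (7.95% and 2.27%, beside 4.57% and 8.48%).

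A majority of the genes lay slightly below 0. The log2 fold change was below 0 in 62 of 88 genes (70.5%, beside 52.4% of the named genes), and its median was -0.05, compared with -0.005 for the named genes. The fold changes ranged from -0.41 to 0.77, but 62 genes lay between -0.1 and 0.1, and the median standard error of a gene was 0.062. A fold change beyond 0.2 in either direction was seen in 8 genes (9.09%, beside 7.7% of the named genes). No test was made of the family as a whole, since its members were chosen with earlier results of these data known.

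**Figure D1:**
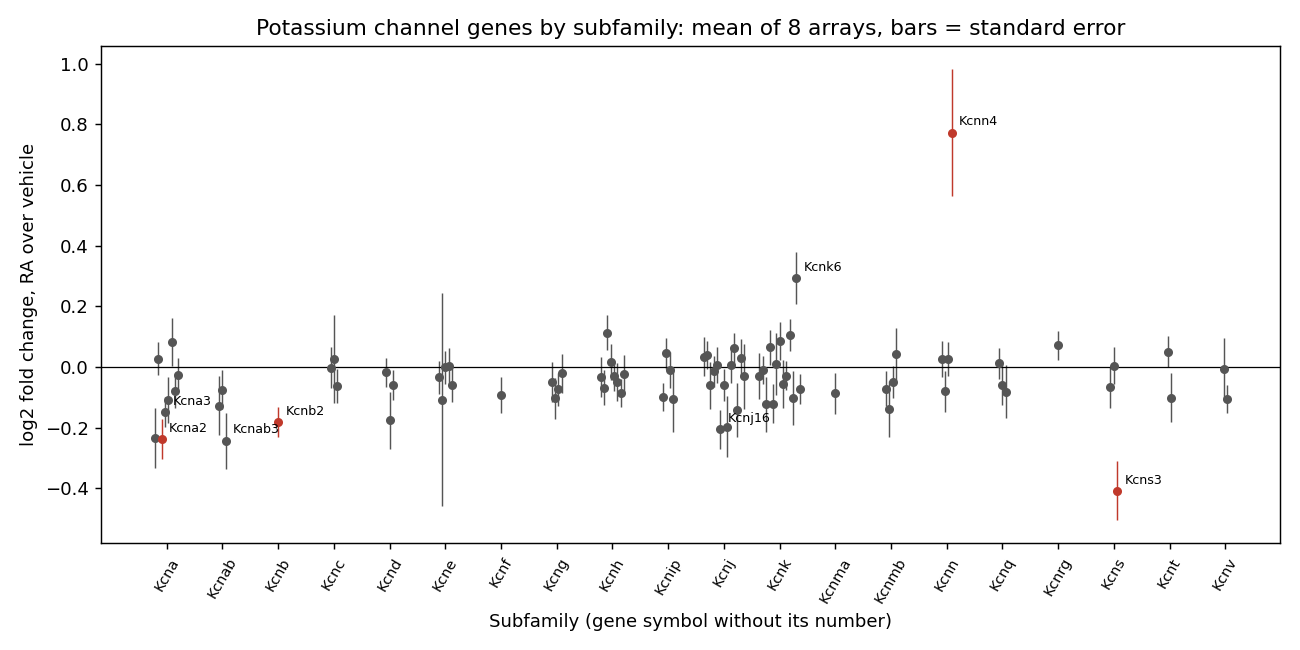
Mean log2 fold change of RA over vehicle (y axis) for 86 of the 88 potassium channel genes, grouped by subfamily (x axis), with bars for the standard error over 4 array pairs. Red points had an unadjusted p under 0.01 and points with a p under 0.05 carry their names: most genes lie close to 0, *Kcns3* lies lowest at -0.41 and *Kcnn4* highest at 0.77.

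The shift was not the same on all arrays. The median log2 ratio of the 88 genes was lowest on array 7 at -0.09 and highest on array 8 at 0.03. It was below 0 on arrays 1, 2, 4, 6 and 7 and above 0 on arrays 3, 5 and 8. The share of genes below 0 was 64.8% on array 7 and 44.3% on arrays 5 and 8, while among the named genes it stayed between 48.0% and 51.7% on every array. In 2 couples of arrays of opposite dye order the genes moved alike: across the 88 genes the log2 ratios correlated with r = 0.744 between arrays 6 and 7 and with r = 0.659 between arrays 5 and 8, and among the other 26 couples r did not exceed 0.423. Over all named genes the same 2 couples gave r = 0.728 and r = 0.694, close to the values for the family. These correlations are across genes, which are not independent replicates, and describe the arrays only. Some markers lay close together in couples 1 and 2, 3 and 4, 5 and 8, and 6 and 7. In these couples *Ttr* had log2 ratios of 1.76 and 1.74, 0.73 and 0.57, 1.21 and 1.37, and -4.48 and -5.11. *Hbb* had -0.56 and -0.40, 0.93 and 1.00, -0.90 and -0.97, and 0.34 and 0.15. No label names these couples, and the main test did not single them out. Many of the couples left out in other fits, such as 1 and 7, mix 2 of them.

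**Figure D2:**
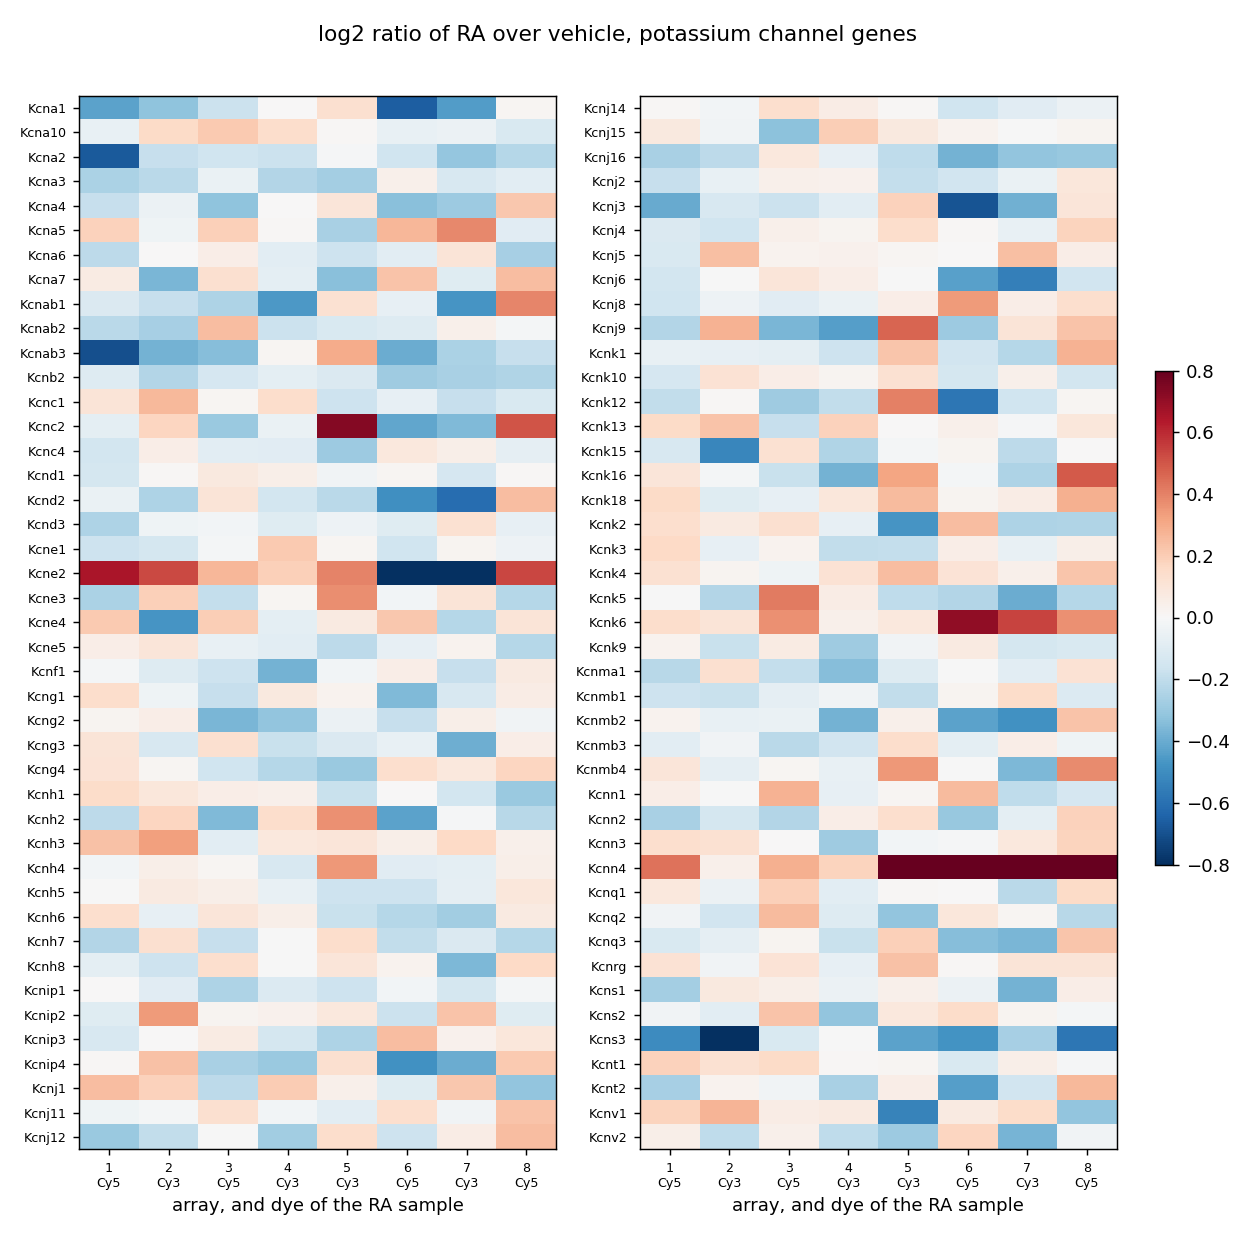
Log2 ratio of RA over vehicle for 86 of the 88 genes (rows, by subfamily) on each of the 8 arrays (columns, with the dye that labelled the RA sample), blue for lower and red for higher after RA, with colours ending at 0.8. The row of *Kcnn4* is darkest red on arrays 5 to 8, the row of *Kcns3* is blue on most arrays, and *Kcne2* is red on 6 arrays and dark blue on arrays 6 and 7.

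Among the pore subunits of voltage-gated channels (*Kcna*, *Kcnb*, *Kcnc* and *Kcnd*, 17 genes), 3 fell, 0 rose and 14 did not pass, and 14 of the 17 log2 fold changes were below 0, with a median of -0.06. At a p under 0.05 limma counted 4 of them as lower and 0 as higher. Beside this group and those below, 0.792% of all named genes fell, 3.52% rose and 52.4% lay below 0. At a p under 0.05, 4.57% of the named genes were lower and 8.48% higher. No group was tested against that background.

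*Kcna2* encodes Kv1.2, a subunit of the low-threshold channels found along axons. On arrays 1 to 8 its log2 ratios were -0.67, -0.19, -0.16, -0.17, -0.01, -0.16, -0.31 and -0.23. All 8 were below 0, with array 1 far below the others and array 5 near 0. The mean log2 intensity was 9.20 in RA and 9.44 in vehicle, a 1.18-fold decrease (log2 fold change -0.24 ± 0.066, SE; unadjusted p = 0.0072 and adjusted p = 0.292 in limma). The call was lost when arrays 1 and 7 were left out (log2 fold change -0.15), and in 16 more of the 32 alternative fits.

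*Kcnb2* encodes Kv2.2, a delayed rectifier of the neuronal soma. Arrays 1 to 8 gave log2 ratios of -0.10, -0.23, -0.13, -0.08, -0.12, -0.28, -0.26 and -0.24, the narrowest spread of the genes that fell. They differed little between the dye orders, with means of -0.19 for RA in Cy5 and -0.17 for RA in Cy3. The log2 fold change was -0.18 ± 0.049 (SE; unadjusted p = 0.0069 and adjusted p = 0.290 in limma). Even so, the call was lost in 19 of the 32 alternative fits. It held in 1 of the 16 fits that left out a couple of arrays.

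Of the other *Kcna* genes, *Kcna1*, which encodes Kv1.1, the usual partner of Kv1.2, had a log2 fold change close to that of *Kcna2* but a wider spread. Its log2 ratios were -0.43, -0.32, -0.17, 0.01, 0.13, -0.66, -0.45 and 0.02 on arrays 1 to 8, 5 of them below 0, with a mean of -0.23 ± 0.10 (SE; unadjusted p = 0.050 in limma). *Kcna3*, which encodes Kv1.3 and is named here because its p of 0.020 brought it into the looser count, had a log2 fold change of -0.15, with 7 of 8 arrays below 0. The remaining subunits did not pass at either threshold. *Kcnd2*, which encodes the A-type channel Kv4.2, had -0.18 ± 0.093 (SE) on its brightest probe and -0.21 on its second, with 6 arrays below 0.

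*Kcnc2*, which encodes Kv3.2, shows how arrays could cancel each other. Its log2 ratios were -0.08, 0.17, -0.30, -0.05, 0.73, -0.42, -0.35 and 0.50 on arrays 1 to 8. Arrays 5 and 8 lay far above 0 and arrays 6 and 7 well below, and the mean was 0.03 ± 0.14 (SE; unadjusted p = 0.864 in limma).

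The electrically silent subunits (*Kcnf*, *Kcng*, *Kcns* and *Kcnv*, 10 genes) form no channel of their own and change the behaviour of *Kcnb* channels they join. In this group 1 fell, 0 rose and 9 did not pass, and 9 of the 10 log2 fold changes were below 0, with a median of -0.07.

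The gene that fell, *Kcns3* (Kv9.3), had the lowest log2 fold change of all 88. On the 8 arrays in order, the log2 ratios were -0.50, -0.89, -0.12, -0.0021, -0.43, -0.48, -0.27 and -0.58. All were below 0, arrays 2 and 8 most and array 4 hardly at all. The means were -0.42 (RA in Cy5) and -0.40 (the reverse), and -0.38 and -0.44 in the first and the second slide row. The mean log2 intensity was 7.77 in RA and 8.17 in vehicle, a 1.33-fold decrease (log2 fold change -0.41 ± 0.097, SE; unadjusted p = 0.0037 and adjusted p = 0.267 in limma). For *Kcns3* the call was lost in 11 of the 32 alternative fits. *Kcnf1* (log2 fold change -0.09), *Kcng2* (-0.10) and *Kcnv2* (-0.11) did not pass, with 5 or 6 of 8 arrays below 0 each.

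**Figure D3:**
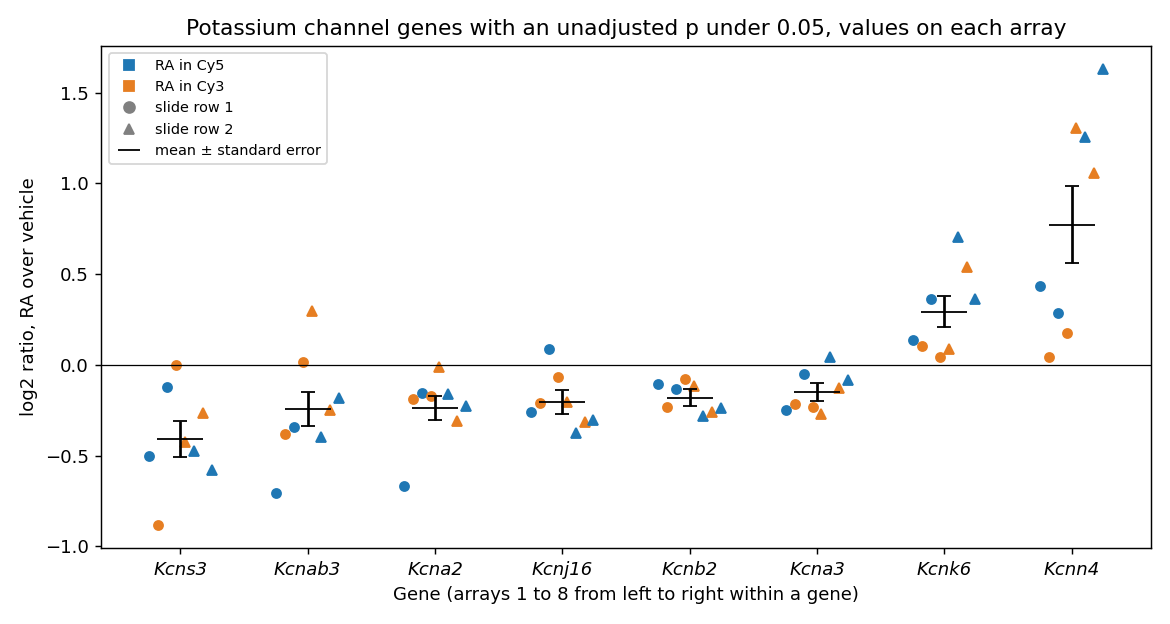
Log2 ratios of RA over vehicle (y axis) on arrays 1 to 8, from left to right within each gene, for 8 of the genes with an unadjusted p under 0.05, coloured by dye order and shaped by slide row, with the mean and its standard error in black. *Kcns3*, *Kcna2* and *Kcnb2* lie below 0 on all 8 arrays, *Kcnk6* and *Kcnn4* above 0 on all 8, and *Kcnn4* is highest in slide row 2.

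Values on all 8 arrays lay below 0 in the 4 genes that fell (4.55% of the 88, beside 1.78% of the named genes) and above 0 in *Kcnn4* and *Kcnk6* (2.27%, beside 4.08%). Of the markers of neurons, 2 of 9 fell (*Nefl* and *Nefm*), 8 of 9 log2 fold changes were below 0, and the median log2 ratio of the list ran from -0.20 to -0.04 over the arrays. Of the markers of oligodendrocytes, whose myelin borders the axon stretches that hold Kv1.2, 0 of 8 fell at a p under 0.01, but 5 of 8 had a p under 0.05 in limma and all 8 log2 fold changes were below 0. The array medians of that list ran from -0.44 to 0.08. The part of neuron or oligodendrocyte content in the 4 genes was not tested.

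The 250 bases before the start of the gene are given for *Kcna2* and *Kcns3*, the genes that fell and are held in the promoters of RefSeq (GRCr8) used here, which cover 59 of the 88 genes. *Kcna2* lies at chr2:197393280-197393529 (plus strand) and *Kcns3* at chr6:39584106-39584355 (minus strand), each printed 5′ to 3′ on the strand of its gene. Capitals mark the GC box GGGCGG on either strand.
*Kcna2*: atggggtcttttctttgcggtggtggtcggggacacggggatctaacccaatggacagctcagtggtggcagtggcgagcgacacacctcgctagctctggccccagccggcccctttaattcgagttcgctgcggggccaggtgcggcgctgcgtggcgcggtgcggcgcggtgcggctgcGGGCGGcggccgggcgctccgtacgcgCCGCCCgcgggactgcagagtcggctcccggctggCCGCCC
*Kcns3*: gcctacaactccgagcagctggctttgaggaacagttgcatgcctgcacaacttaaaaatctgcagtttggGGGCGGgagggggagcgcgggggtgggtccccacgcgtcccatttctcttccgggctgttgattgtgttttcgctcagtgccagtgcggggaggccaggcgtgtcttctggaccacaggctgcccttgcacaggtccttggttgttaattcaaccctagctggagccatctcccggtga
The GC box was found in 3 places before *Kcna2* and 1 place before *Kcns3*. Of the 59 promoters 49.2% held it, and 32.4% of all 27457 promoters did. The bases AGGTCA, a core sequence of the sites that RA receptors bind, were in neither window on either strand. Over the family they were in 3 of 59 windows (5.08%) and over all promoters in 13.7%, while the median GC content was 59.6% in the family and 52% in all. A match or its absence describes these windows only.

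Among the accessory subunits (*Kcnab*, *Kcne*, *Kcnip* and *Kcnmb*, 16 genes), 0 rose and 0 fell at a p under 0.01 in limma, 1 was lower at a p under 0.05, and 13 log2 fold changes were below 0, with a median of -0.07. The gene that was lower in the looser count, *Kcnab3*, encodes a beta subunit of Kv1 channels. Its log2 ratios were -0.70, -0.38, -0.34, 0.02, 0.30, -0.40, -0.25 and -0.18 on arrays 1 to 8. Array 5 stood clearly above 0 and 6 arrays lay below, which gave a mean of -0.24 ± 0.092 (SE; unadjusted p = 0.032 in limma). *Kcnip4*, which encodes a calcium-binding partner of Kv4 channels, had a log2 fold change of -0.11 with 4 arrays on either side of 0. *Kcnmb2* and *Kcnmb4*, subunits of the large-conductance calcium-activated channel, had log2 fold changes of -0.14 and 0.04.

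*Kcne2* had the widest range of the 88 genes. It encodes a small subunit that joins Kcnq1 channels and is known for its high level in the choroid plexus, the epithelium that makes cerebrospinal fluid. In array order, log2 ratios were 0.65, 0.53, 0.27, 0.19, 0.40, -1.47, -1.97 and 0.54. It was above 0 on 6 arrays and far below 0 on arrays 6 and 7, and its mean was -0.11 ± 0.35 (SE; unadjusted p = 0.766 in limma). Without arrays 6 and 7 the log2 fold change was 0.43 (unadjusted p = 0.0012 in limma). This was the highest of the 16 fits that left out a couple of arrays, and the only 1 under 0.01. It drops the 2 arrays already seen to be lowest, so no rise is read from it. The markers of choroid plexus followed the same arrays. None of the 8 passed the test (limma, 0 also at a p under 0.05), the median of their log2 ratios was -1.28 on array 6 and -1.24 on array 7, and on the other 6 arrays it lay between 0.05 and 0.57. *Ttr*, the defining gene of that list, had log2 ratios of -4.48 and -5.11 on arrays 6 and 7 and of 0.57 to 1.76 on the others. The part of choroid plexus content in the values of *Kcne2* was not tested.

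**Figure D4:**
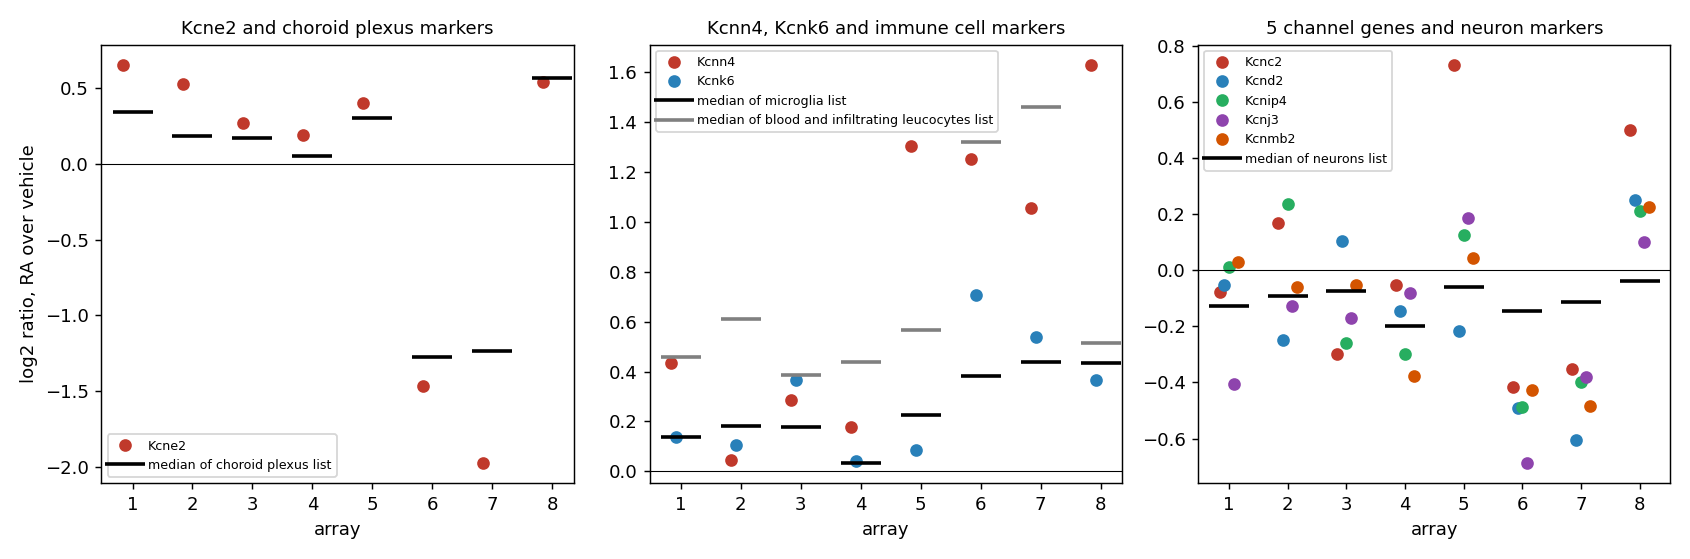
Log2 ratios of RA over vehicle (y axis) on arrays 1 to 8 (x axis) for single genes (points) and medians of cell type marker lists (bars). *Kcne2* and the choroid plexus markers are far below 0 on arrays 6 and 7, *Kcnn4* is above 1 on arrays 5 to 8, where the microglia median is also highest. The third panel shows 5 channel genes beside the median of the neuron markers.

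On arrays 6 and 7 other genes of the family were also low. The log2 ratios on these 2 arrays were -0.49 and -0.61 for *Kcnd2*, -0.69 and -0.38 for *Kcnj3*, -0.49 and -0.40 for *Kcnip4*, and -0.43 and -0.49 for *Kcnmb2*. On array 8 the same 4 genes lay between 0.10 and 0.25. These 4 were chosen for the plot after their values were seen.

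The slow and ether-à-go-go-type pore subunits (*Kcnq* and *Kcnh*, 11 genes) held no gene that passed, either at a p under 0.01 or under 0.05 in limma, and 8 of the 11 log2 fold changes were below 0, with a median of -0.03. *Kcnh3*, a channel of forebrain neurons, had the largest log2 fold change of the group, 0.11 ± 0.058 (SE), and was above 0 on 7 arrays. Its second probe, well above background on 6 arrays, had means of 0.49 with RA in Cy5 and of -0.28 in the other dye order. *Kcnq3*, a subunit of the M-current that restrains repeated firing, had a log2 fold change of -0.08 with 5 arrays below 0.

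Among the inward rectifiers without *Kcnj10* and *Kcnj13* (13 genes), 0 passed at a p under 0.01 in limma, 1 was lower at a p under 0.05, and 7 log2 fold changes were below 0, with a median of -0.01. *Kcnj16*, which encodes the pH-sensitive Kir5.1, had log2 ratios of -0.26, -0.21, 0.09, -0.07, -0.20, -0.38, -0.31 and -0.30 on arrays 1 to 8. Only array 3 lay above 0, and the mean was -0.21 ± 0.065 (SE; unadjusted p = 0.015 in limma). It was lower in the second slide row, with a mean of -0.30, than in the first, with -0.11. *Kcnj3*, which encodes the G protein-gated Kir3.1, had a log2 fold change of -0.20 ± 0.10 (SE; unadjusted p = 0.089), with 6 arrays below 0.

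Two-pore leak channels (*Kcnk*, 13 genes) held 0 genes that passed at a p under 0.01 in limma and 1, *Kcnk6*, at a p under 0.05, with 8 log2 fold changes below 0 and a median of -0.03. *Kcnk6* encodes TWIK-2, a leak channel found in macrophages among other cells. Its log2 ratios were 0.14, 0.11, 0.36, 0.04, 0.09, 0.71, 0.54 and 0.36 on arrays 1 to 8. All 8 were above 0, arrays 6 and 7 most. The mean was 0.29 ± 0.085 (SE), or 1.23-fold higher (unadjusted p = 0.011 and adjusted p = 0.315 in limma). The p was under 0.01 in 23 of the 24 pairings. *Kcnk2*, the mechanosensitive TREK-1, had log2 fold changes of -0.06, -0.01 and -0.05 on its 3 probes.

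Among the calcium- or sodium-activated pore subunits (7 genes) 1 rose, 0 fell and 6 did not pass, and 3 log2 fold changes were below 0, with a median of 0.02. *Kcnn4* encodes the intermediate-conductance channel KCa3.1, which is known from red cells, T cells and activated microglia. From array 1 to array 8 the log2 ratios were 0.43, 0.04, 0.28, 0.18, 1.31, 1.25, 1.05 and 1.63. All were above 0, and the 4 arrays of the second slide row did not overlap with those of the first. The mean was 0.23 in the first row and 1.31 in the second, while the dye orders had means of 0.90 (RA in Cy5) and 0.65 (the reverse).

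The mean log2 intensity of *Kcnn4* was 7.31 in RA and 6.54 in vehicle, a 1.71-fold increase (log2 fold change 0.77 ± 0.21, SE; unadjusted p = 0.0078 and adjusted p = 0.297 in limma). The probe was well above background in RA on 7 arrays and in vehicle on 3. Within each slide row alone limma gave an unadjusted p under 0.01. Unlike the main test, these fits took the arrays of a row as independent, though some may share RNA. The call was lost without arrays 6 and 7, without arrays 8 and 5, and in 3 more of the 16 fits that left out a couple of arrays, where the log2 fold change was 0.54 to 0.78. With plain background subtraction the log2 fold change was 2.00 but did not pass.

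Markers of immune cells moved with these 2 genes that were higher. Of 8 microglia markers 3 rose (*Aif1* 0.88, *Itgam* 0.87 and *C1qa* 0.83 on the log2 scale) and 1, *Tmem119*, fell by 0.52, and the array medians of the list ran from 0.03 to 0.44. Of 7 markers of blood and leucocytes with a probe, 3 rose (*Ptprc* 1.04, *Lyz2* 1.30 and *S100a9* 1.25), and the array medians ran from 0.39 to 1.46. *Hbb* and *Alas2*, the red cell markers of that list, had log2 fold changes of -0.05 and -0.02, and *Ccr2* was well above background on 1 array. Of 8 astrocyte markers 1 rose (*Gfap*, 1.40) and 2 fell. The part of immune cell content in *Kcnn4* and *Kcnk6* was not tested.

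The other genes of that group stayed near 0. *Kcnma1*, the pore of the large-conductance calcium-activated channel, gave log2 fold changes of -0.09, -0.17 and 0.03 on its 3 probes. *Kcnt1* and *Kcnt2*, the sodium-activated channels, had 0.05 and -0.10. *Kcnrg*, a regulator of potassium channels that fits none of these groups, had a log2 fold change of 0.07 and was well above background on 6 arrays.

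Both dye orders could be compared as a check on labelling. Across the 88 genes the means of the dye orders had the same sign in 50 and correlated with r = 0.402. In 3 genes, named after their values were seen, the sign followed the dye on every array: *Kcna7* and *Kcnk3* were above 0 whenever RA was in Cy5 and below 0 otherwise, and *Kcne3*, which was not well above background on any array, was the opposite. All 9 genes with a p under 0.05 in limma had means of the same sign in both dye orders. They were picked by that p on these same arrays, so their agreement is no separate check on labelling. With the RA in Cy5 arrays alone, 2 genes rose and 4 fell, and with the RA in Cy3 arrays alone 0 rose (limma, unadjusted p under 0.01) and 4 fell. Shares over all named genes are not given for these 2 fits.

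**Figure D5:**
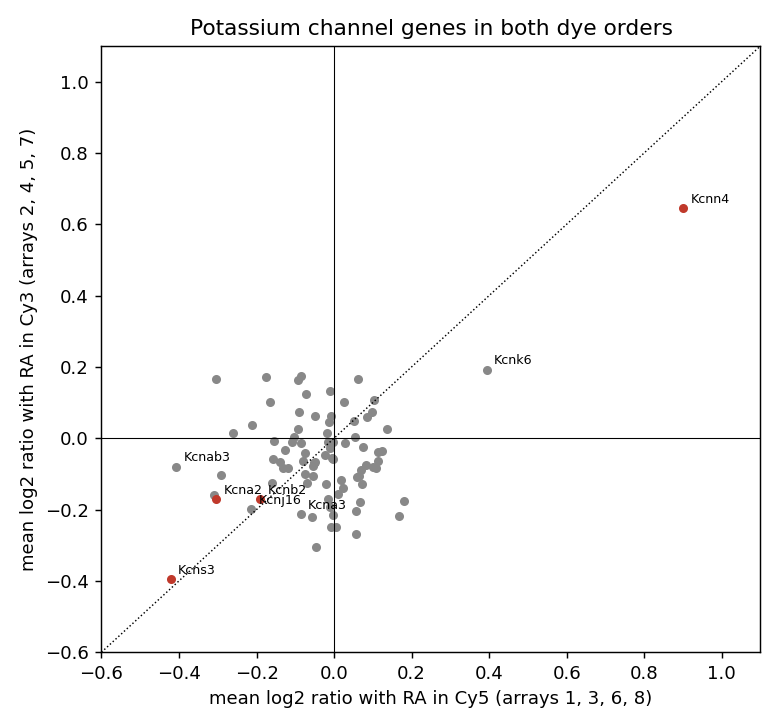
Mean log2 ratio of RA over vehicle on the 4 arrays with RA in Cy5 (x axis) and on the 4 arrays with RA in Cy3 (y axis) for 86 of the 88 genes, with the line of equality dotted and red points for an unadjusted p under 0.01. *Kcnn4* and *Kcns3* lie near the line at opposite ends, and most genes form a cloud around 0.

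Genes that work with potassium channels but are not part of the family were read from a list of 22, of which 19 had a probe. In limma 0 of the 19 passed at a p under 0.01, and at a p under 0.05, 3 were lower and 0 higher. The 3 included the scaffold gene *Dlg2*, with a log2 fold change of -0.16, and *Cntn2*, an adhesion molecule that holds Kv1 channels in place at axons, with -0.13. The log2 fold change was below 0 in 15 of the 19, with a median of -0.06. Among all named genes, 4.31% passed at a p under 0.01 in limma, and 52.4% of log2 fold changes were below 0. At a p under 0.05, 4.57% of the named genes were lower and 8.48% higher. Whether the list differed from other genes was not tested.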

How the data were processed

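Each of the 8 two-colour arrays was deposited as its scanner output (Agilent Feature Extraction 10.7.3.1), which holds linear Cy3 and Cy5 intensities and a log10 ratio of the dyes for every spot. A deposited table of log2 ratios holds the authors' normalised values. Per the methods, limma, loess, the mean of identical probes and a dye-swap block were used by the authors. No background correction is given in the sources used here. Every column of the normalised table was matched to its array, with column medians between -0.003 and 0.013 and correlations of 0.985 to 1.00 with ratios computed here without background correction, so its direction is RA over vehicle. It served as an alternative only.

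The analysis was run in limma 3.58.1 (R 4.3.3). Median spot intensities were corrected with normexp (offset 50), and spots marked as outliers (0.913% to 2.42% per array) and control spots were left out. Loess was applied within arrays and spots of a probe were averaged, giving 30367 probes. A probe was taken as well above background on an array if Agilent's flag was on in a share of 0.5 or more of its spots, in either channel unless one is named. Names came from transcript accessions matched to RefSeq (GRCr8), which named 18006 probes (59.29%). Benjamini-Hochberg adjustment covered all probes with a test (20 had none). Standard errors are those of the pairing with the largest p. The test was also run on simulated arrays, and the outcome is not reported here.

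Genes named singly were those with a p under 0.01, the largest fold change of each subfamily and the 10 largest of all among genes well above background on every array, the 3 widest ranges and the brightest gene of each role group, 27 in all. Other names are marked where they appear. A few genes counted among the totals are not reported here by name. The genes, the gene lists and the marker lists were chosen with earlier results of these data known. Alternatives changed the background correction, the normalisation between arrays, the filter, the treatment of pairs, dyes and slide rows, the variance model and the probes of a gene, or left out 1 of 16 couples of arrays of opposite dye order.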

Additional observations from a re-analysis of the deposited data

Results flagged for a closer look

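In each of the 27 named genes and in the median of the 88, the 4 arrays of each dye order were examined for an array that stood far from the other 3 (Dixon's test). Of 56 such groups 4 held one, and the nominal rate of the test is about 1 in 20, or 2.8 groups. The genes were chosen in part for wide ranges or large changes in these values, and the groups share arrays. That rate is therefore only a rough guide. With RA in Cy5, *Kcna2* had a log2 ratio of -0.67 on array 1, while the other 3 arrays lay between -0.23 and -0.16. With RA in Cy3, *Kcne2* had -1.97 on array 7 against 0.19 to 0.53 on the others, and *Kcnk6* had 0.54 on array 7 against 0.04 to 0.11. Array 6, of the other dye order, was also low for *Kcne2* (-1.47) and high for *Kcnk6* (0.71). With RA in Cy5, *Kcnrg* had 0.0071 on array 6 against 0.10 to 0.12 on the others.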

How the results depend on the processing

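Each log2 ratio set RA against vehicle on the same array. The labels do not name the arrays that share RNA, so no single pairing of arrays could be taken from them. Instead all 24 pairings of arrays were fitted, and between 6 and 12 of the 88 genes had a p under 0.01 in a single pairing. The numbers of genes that rose and fell were 1 and 4. Plain background subtraction gave 0 and 1 (79 genes tested), Agilent's log ratio 0 and 2 with a median log2 fold change of -0.11, and probes well above background only 0 and 4. Scaling between arrays gave 2 and 4, pairs as a random block 2 and 5, and independent arrays or slide row as a block 2 and 7 each. RA in Cy5 alone gave 2 and 4, RA in Cy3 alone 0 and 4, slide row 1 alone 2 and 3, and slide row 2 alone 2 and 4. The fits with independent arrays, slide row as a block or a single slide row took arrays that may share RNA as separate. Shares over all named genes are not given for the alternatives or the single pairings. The counts therefore show only how the calls varied, not whether the family differed from other genes. When 1 couple of arrays was left out, 0 to 2 genes rose and 0 to 4 fell, and the median of the 88 lay between -0.06 and -0.02. None of the 4 that fell passed without arrays 1 and 2, 1 and 7, 8 and 2, or 6 and 7. Over 32 alternatives *Kcns3* lost its call in 11, *Kcna2* in 17, *Kcnb2* in 19 and *Kcnn4* in 9, with 0 changes of sign. The log2 fold change of *Kcns3* was -0.59 with subtraction and -0.68 with Agilent's ratio, and that of *Kcnn4* 2.00 and 1.93. *Kcne2* turned to 0.41 in slide row 1 alone and, over the fits that left out a couple of arrays, ranged from -0.34 to 0.43. The highest was without arrays 6 and 7, where it passed, but these were already seen to be its lowest arrays. The cause of these shifts was not tested. The number of arrays and the signal over background limit what could be detected, and 18 of the 88 genes were not well above background on every array.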
